A study of Mus musculus with 6 samples.

Results

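Sterol and fatty acid synthesis genes are 39 genes that make cholesterol and fatty acids or regulate that synthesis. They were taken from a list of gene symbols and looked up in the deposited table, with no threshold on a measured value. All 39 were among its 54648 symbols, none was at 0 in all libraries, and all 39 passed the filter on low counts that left 15608 genes tested.

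RNA-seq had given 3 WT and 3 FOXO3 KO libraries of mouse peritoneal cells, and the groups ask what loss of the transcription factor FOXO3 changes in macrophages. WT and FOXO3 KO mice were littermates of strain C57BL/6, male and female, 6 to 8 weeks old, on standard chow. FOXO3 KO mice carried the knockout in the whole animal, not in macrophages alone. Both groups had received 3% thioglycollate, an irritant that draws macrophages into the peritoneal cavity, and the cells were harvested after 4 days and pelleted with no sort described, so a library is the whole harvest of peritoneal cells.

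Libraries held between 28083393 and 36424117 counts, and levels are given as CPM, counts scaled by the library size after TMM normalization. The library labelled FOXO3 KO 2 held Foxo3 at 104 CPM, within the WT range of 72.9 to 117 CPM, while FOXO3 KO 1 and FOXO3 KO 3 held 4.71 and 4.28 CPM. The library labelled WT 3 stood apart, with correlations across genes of 0.929 to 0.956 with the other libraries, where every other pair reached at least 0.986. Xist was at 869 CPM in WT 3 and 1127 CPM in FOXO3 KO 3 and at 0.0729 to 0.177 CPM in the other 4 libraries, so the mice were of both sexes in either group. Results are therefore given with all 6 libraries by their labels, and also without FOXO3 KO 2 and without WT 3. The 12 macrophage markers, such as Adgre1 and Csf1r, summed to between 14076 and 18995 CPM. The 8 adipocyte markers summed to between 0.282 and 0.864 CPM, with Cfd and Lep at 0 in every library. In such bulk samples, fewer cells of a type and less RNA per cell cannot be told apart.

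Cells make cholesterol from acetyl-CoA through mevalonate, isoprenoid diphosphates, squalene and lanosterol, and they make fatty acids from the same acetyl-CoA through malonyl-CoA. SREBP transcription factors, encoded by Srebf1 and Srebf2, switch on both routes when sterols run low: SCAP escorts them from the endoplasmic reticulum to the Golgi, and the INSIG proteins hold them back when sterols are plentiful. In macrophages, these routes supply membranes, lipid mediators and oxysterols.

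Promoter sequences from RefSeq (GRCm38.p6) were matched for 32 of the 39 genes, with 43 promoters in all. None was available for Stard4, Fads1, Scd1, Sqle, Fdps, Scd2 and Fdft1, so these were not searched. The 250 bases before each start were searched on both strands for 4 short motifs. The sterol regulatory element TCACNCCAC was in 2 of the 43 (4.65%), those of Hmgcs1 and Mlxipl, against 1.05% of all 32851 promoters. The CCAAT box, to which NF-Y binds beside SREBP, was in 26 (60.5%) against 33.8%. The E-box CACGTG was in 7 (16.3%) against 6.02%. The FoxO element GTAAACA was in 1 (2.33%), that of Elovl6, against 3.17%. These are matches of letters and not sites shown to be bound. The sterol element of Mlxipl was in another promoter of the gene (chr5:135106641-135106940) than the stretch printed below. The stretches below are shown because Hmgcs1 held the sterol element, Mlxipl an E-box, Elovl6 the FoxO element and Fasn 2 boxes of the CCAAT type that overlap. They are written 5′ to 3′ on the strand of the gene, with the motifs in capitals (ATTGG is CCAAT on the other strand).
Hmgcs1, chr13:119690166-119690313, plus strand, 185 to 38 bases before the start: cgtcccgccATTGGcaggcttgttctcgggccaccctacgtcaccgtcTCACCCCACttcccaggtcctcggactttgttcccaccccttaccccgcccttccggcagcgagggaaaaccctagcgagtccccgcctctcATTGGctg
Mlxipl, chr5:135089715-135089800, plus strand, 175 to 90 bases before the start: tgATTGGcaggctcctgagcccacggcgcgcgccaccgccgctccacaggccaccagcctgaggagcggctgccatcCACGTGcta
Elovl6, chr3:129532246-129532286, plus strand, 140 to 100 bases before the start: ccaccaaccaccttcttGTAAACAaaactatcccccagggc
Fasn, chr11:120824592-120824642, minus strand, 95 to 45 bases before the start: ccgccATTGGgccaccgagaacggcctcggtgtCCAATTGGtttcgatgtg

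Per kb of exon, the genes covered a wide range of levels in these cells. Acly, which makes cytosolic acetyl-CoA from citrate, had the highest mean at 62.7 CPM per kb. Elovl1 at 43.6 and Elovl5 at 42.4 CPM per kb followed, and their ranges over the libraries overlapped. Insig1 was at 31.8, Srebf2 at 21.1 and Srebf1 at 11.6 CPM per kb. Fasn, fatty acid synthase, was at 2.76 CPM per kb. The lowest means were those of Fads2 at 0.592, Me1 at 0.519, Elovl7 at 0.312 and Acacb at 0.122 CPM per kb. Scd1 had a mean of 21.1 CPM per kb and a range from 3.44 to 66.4 CPM per kb. Lengths were those of all annotated exons of a gene joined (GENCODE M21, GRCm38), which understates genes whose cells use a short transcript.

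**Figure D1:**
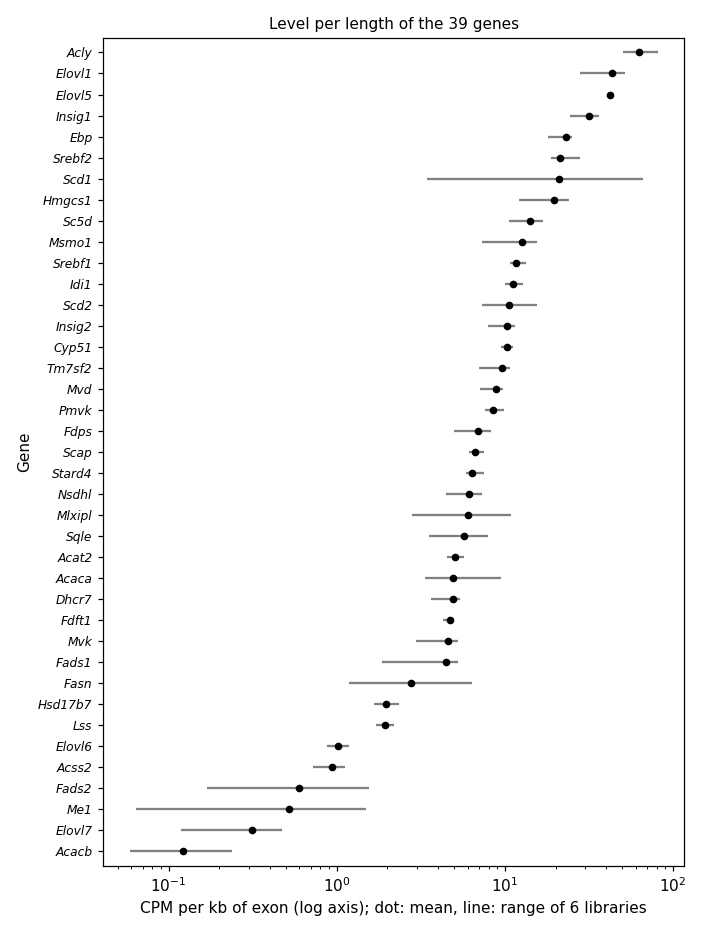
Mean level of each of the 39 genes in CPM per kb of exon on a log axis (dots), with the range over the 6 libraries (lines). Acly is highest at 62.7 and Acacb lowest at 0.122 CPM per kb, and the lines of Scd1, Me1, Fasn and Fads2 are among the long ones.

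None of the 39 genes passed an FDR of 0.05 and a fold change of 1.5 between FOXO3 KO and WT by the quasi-likelihood test of edgeR, and neither did any of the 15608 genes tested (0%). The smallest adjusted p of that test was 0.714. At an unadjusted p under 0.05 in edgeR, 3 of the 39 were higher in FOXO3 KO (Fads2, Sqle and Idi1), where 4.04% of all genes were, and 0 were lower, where 1.65% were. Without FOXO3 KO 2, again 3 were higher (background 3.05%) and 0 lower (background 1.26%). Without WT 3, 7 were higher (background 6.15%) and 1 was lower (background 2.25%). In 7 of the 39, every FOXO3 KO library lay above every WT library, against 7.00% of all genes, and these were Hmgcs1, Idi1, Sqle, Nsdhl, Elovl6, Fads1 and Fads2. Scap was the 1 gene with every FOXO3 KO library below every WT library, against 5.36% of all genes. DESeq2 called 1 of the 39, Fads2, with 0.797% of all genes called. The median log2 fold change was 0.08 over the 39 genes and -0.01 over all genes tested. It was 0.11 over the 19 sterol genes (0.17 without FOXO3 KO 2, 0.02 without WT 3) and 0.00 over the 14 fatty acid genes (-0.01 without FOXO3 KO 2, 0.33 without WT 3).

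**Figure D2:**
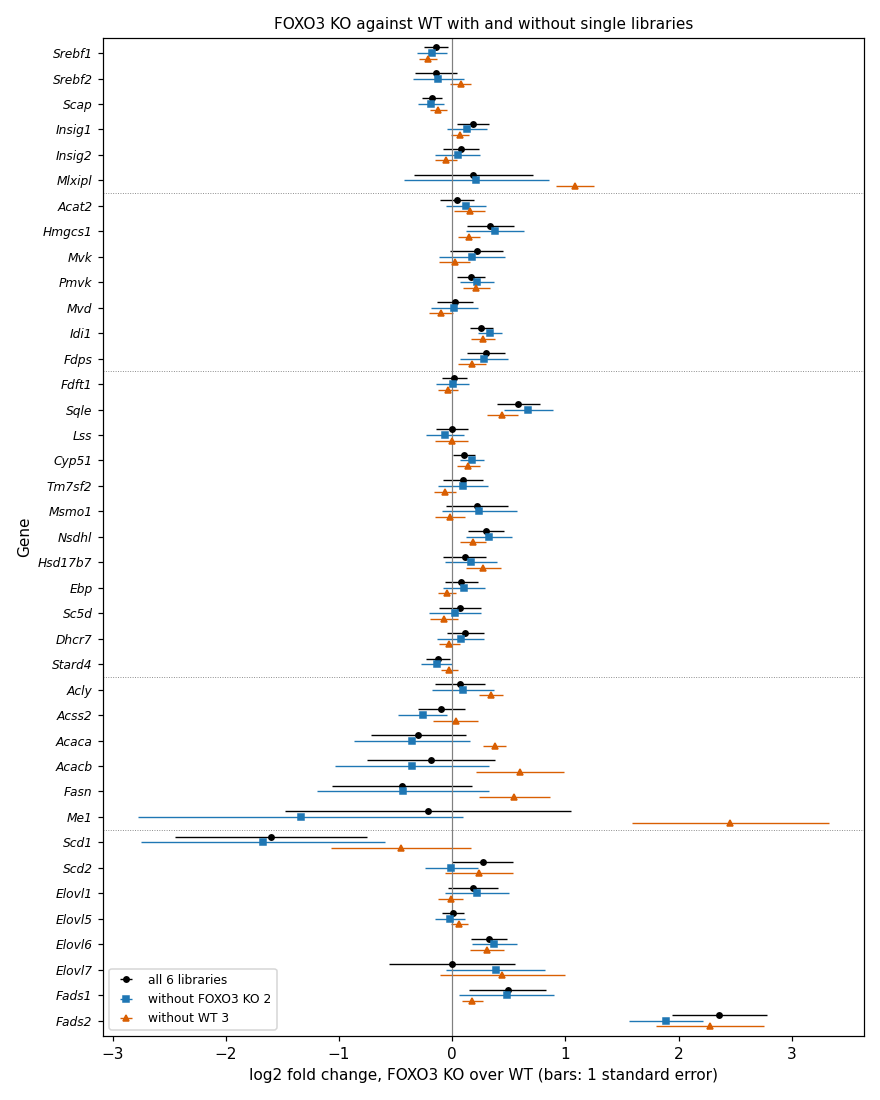
Log2 fold change of FOXO3 KO over WT for each gene with all 6 libraries (black circles), without FOXO3 KO 2 (blue squares) and without WT 3 (orange triangles), with bars of 1 standard error, in order of role. Fads2 lies near 2 in all 3, while Mlxipl, Acaca, Fasn and Me1 move to the right without WT 3.

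The SREBP factors and their escort and retention proteins had log2 fold changes between -0.18 and 0.18, and none passed an unadjusted p of 0.05 in edgeR with all 6 libraries. Srebf1 was at 75.3, 70.2 and 61.3 CPM in the WT libraries and 60.1, 65.2 and 61.6 CPM in the FOXO3 KO libraries. Srebf2 was at 141, 135 and 202 CPM in WT and 135, 140 and 158 CPM in FOXO3 KO. For both, the groups overlapped, with log2 fold changes of -0.15 for Srebf1 (SE 0.11) and -0.14 for Srebf2 (SE 0.18). Without WT 3, WT 1 and WT 2 lay above all FOXO3 KO libraries for Srebf1, the 1 gene lower in that setting (log2 fold change -0.21, SE 0.08, edgeR unadjusted p = 0.034, adjusted p = 0.552), while Srebf2 was at 0.08. Scap was at 48.7, 52.6 and 55.7 CPM in WT and 45.5, 46.4 and 46.5 CPM in FOXO3 KO. That gap was small, at a log2 fold change of -0.18 (SE 0.09, edgeR unadjusted p = 0.081, adjusted p = 0.839). The value was -0.19 without FOXO3 KO 2 and -0.12 without WT 3. Insig1, itself switched on by SREBP, was at 101, 101 and 75.2 CPM in WT and 104, 112 and 97.9 CPM in FOXO3 KO, where WT 3 was lowest and the groups overlapped (log2 fold change 0.18, SE 0.14, and 0.07 without WT 3). Insig2 had a log2 fold change of 0.08 (SE 0.16, and -0.05 without WT 3).

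Mlxipl, which encodes ChREBP, a factor that responds to sugar and drives fatty acid synthesis genes, was at 15.6, 18.3 and 59.8 CPM in WT and 30.2, 34.3 and 42.1 CPM in FOXO3 KO. WT 3 was the highest library and the other WT libraries the lowest, so that the FOXO3 KO libraries lay between them. With all 6 libraries the log2 fold change was 0.18 (SE 0.53). Without WT 3 it was 1.08 (SE 0.16, edgeR adjusted p = 0.439), and the FOXO3 KO mean was then 2.10 times that of WT 1 and WT 2.

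All 7 genes of the mevalonate stage had log2 fold changes above 0, where 48.8% of all genes did. They ran from 0.02 to 0.33 with a median of 0.22. Without FOXO3 KO 2, 7 of 7 were still above 0 (median 0.22, background 47.6%). Without WT 3, 6 of 7 were (median 0.15, background 50.7%). Idi1 (13:8885501-8892451), which converts isopentenyl diphosphate to its isomer, was at 35.3, 35.6 and 35.7 CPM in WT and 44.4, 37.9 and 45.1 CPM in FOXO3 KO. The WT libraries were almost equal, and FOXO3 KO 2 was nearest to them (log2 fold change 0.26, SE 0.10, edgeR unadjusted p = 0.0404, adjusted p = 0.839). Without FOXO3 KO 2 the log2 fold change was 0.33 (SE 0.10, edgeR unadjusted p = 0.0222, adjusted p = 0.994), and without WT 3 it was 0.27. Of the 31-base stretches of Idi1 transcripts, 27.1% also occur in other genes, mostly in Gm13502, so its count depends on how such reads were shared out. Among the sterol genes, that share was larger for Acat2 (43.7%), Fdft1 (31.9%) and Fdps (27.9%), to which the same may apply. The deposited values of Fdft1 were whole in all 6 libraries, and those of Idi1, Acat2 and Fdps were not. Hmgcs1, which joins acetyl-CoA to acetoacetyl-CoA and whose promoter holds the sterol element above, was at 89.2, 93.4 and 56.1 CPM in WT and 111, 93.8 and 96.5 CPM in FOXO3 KO. FOXO3 KO 2 lay only just above WT 2, and WT 3 was low. The log2 fold change was 0.33 (SE 0.21), with 0.38 without FOXO3 KO 2 and 0.15 without WT 3.

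Fdps, which makes farnesyl diphosphate, was at 26.2, 31.5 and 21.0 CPM in WT and 34.9, 33.2 and 28.8 CPM in FOXO3 KO, with groups that overlapped (log2 fold change 0.30, SE 0.17, and 0.18 without WT 3). Pmvk, a kinase of this stage, was at 13.1, 13.9 and 14.5 CPM in WT and 16.9, 14.3 and 15.2 CPM in FOXO3 KO (log2 fold change 0.16, SE 0.12). Neither difference stood clear of its error. Mvk, the kinase that acts first on mevalonate, had a log2 fold change of 0.22 (SE 0.23), which was 0.02 without WT 3. Acat2 was at 0.04 and Mvd at 0.02, and at 0.15 and -0.10 without WT 3.

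Of the 12 genes from squalene to cholesterol, 11 had log2 fold changes above 0 (median 0.10), where 48.8% of all genes did. Only Stard4, which carries sterol between membranes, was below 0, at -0.13 (-0.03 without WT 3). Without FOXO3 KO 2, 10 of the 12 were above 0 (median 0.10, background 47.6%). Without WT 3, 4 of the 12 were (median -0.02, background 50.7%). Sqle (15:59315077-59331192) encodes squalene epoxidase, which catalyses the first oxygen-dependent step of the route. It was at 29.5, 26.7 and 19.5 CPM in WT and 43.8, 33.3 and 36.5 CPM in FOXO3 KO, with no overlap. The FOXO3 KO mean was 1.5 times the WT mean (log2 fold change 0.58, SE 0.19, edgeR unadjusted p = 0.0194, adjusted p = 0.763). It was 0.67 without FOXO3 KO 2 and 0.44 without WT 3, on the log2 scale.

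Nsdhl, an enzyme that strips methyl groups from the sterol ring, was at 16.0, 18.0 and 12.8 CPM in WT and 21.0, 18.4 and 18.1 CPM in FOXO3 KO. The groups did not overlap, but WT 2 and FOXO3 KO 3 were almost equal. The log2 fold change was 0.30 (SE 0.16), with 0.33 without FOXO3 KO 2 and 0.18 without WT 3. The other genes of this stage had log2 fold changes from 0.00 for Lss to 0.22 for Msmo1, among them Cyp51 at 0.10, Dhcr7 at 0.12 and Fdft1 at 0.02. None of these passed an unadjusted p of 0.05 in edgeR. WT 3 held the lowest value of 12 of the 19 sterol genes (63.2%), where it held the lowest of 37.6% of all genes. FOXO3 KO 1 held the highest value of 11 of the 19 (57.9%), where it held the highest of 14.5% of all genes. In WT 3, Msmo1, a sterol oxidase, was at 0.524 times the mean of the other WT libraries, and its log2 fold change was -0.02 without it.

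The sum of markers of dividing cells was higher in FOXO3 KO. The 8 markers summed to 271, 278 and 234 CPM in WT and 322, 313 and 318 CPM in FOXO3 KO, with no overlap. WT 3 had the lowest sum through Pcna, the largest part of each sum. Pcna was at 172, 196 and 120 CPM in WT and 196, 184 and 159 CPM in FOXO3 KO, and its groups overlapped. Those of Rrm2 and Mcm5 overlapped too, and Mcm5 had a log2 fold change of -0.04. The median of the markers, as log2 CPM centred on each gene's mean, was instead lowest in WT 2, at -0.46. It was -0.23 in WT 1 and -0.21 in WT 3. Of the 8, 7 had log2 fold changes above 0, and 5 passed an unadjusted p of 0.05 in edgeR, all higher (background 4.04%). The 10 neutrophil markers summed to 27.3, 40.2 and 7.25 CPM in WT and 289, 39.5 and 210 CPM in FOXO3 KO, high in the pair of libraries where Foxo3 was low. Of those markers, 5 passed the filter on low counts, and 3 of them, S100a8, S100a9 and Cxcr2, were higher at an unadjusted p under 0.05 in edgeR. S100a9 was the largest part of the sums in FOXO3 KO 1 and FOXO3 KO 3, at 164 and 116 CPM. Retnlg, at 17.5, 21.2 and 3.46 CPM in WT and 21.7, 16.9 and 18.4 CPM in FOXO3 KO, and Ltf had groups that overlapped. Ly6g, Mpo, Elane, Camp and Ngp were at 0.247 CPM or less in every library. The part of dividing cells and neutrophils in the values of the sterol genes and of Fads2, below, was not tested.

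**Figure D3:**
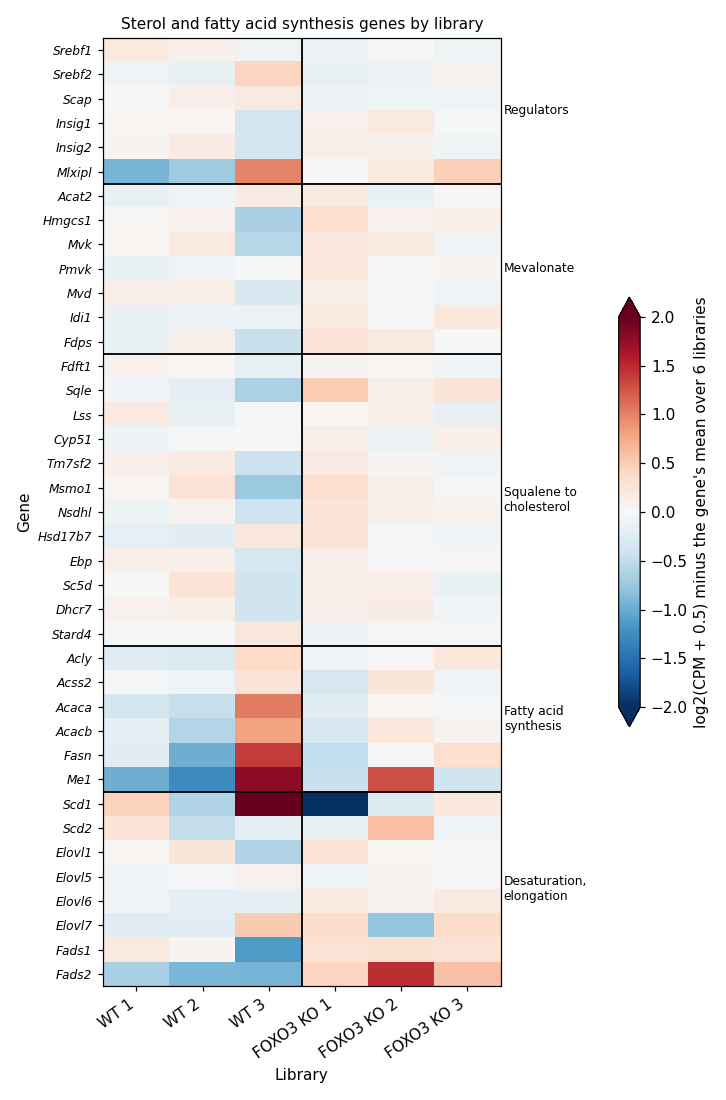
Level of each gene in each library as log2(CPM + 0.5) minus the gene's mean over the 6 libraries (red higher, blue lower, colours cut at 2), in order of role. WT 3 is blue for most sterol genes and red for all 6 genes of fatty acid synthesis.

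The 6 genes of fatty acid synthesis turned with 1 library. With all libraries, 5 of 6 had log2 fold changes below 0 (median -0.20), where 48.8% of all genes were above 0. Without WT 3, 6 of 6 were above 0 (median 0.46), against 50.7% of all genes. Without FOXO3 KO 2, 5 of 6 were below 0 (median -0.35). WT 3 was the highest library for 6 of 6 of these genes, where it was the highest for 37.1% of all genes. Fasn (11:120805846-120824547) was at 22.2, 12.9 and 69.3 CPM in WT and 18.4, 25.3 and 33.1 CPM in FOXO3 KO. WT 3 was at 3.94 times the mean of the other WT libraries, and the WT values reached both below and above all FOXO3 KO values (log2 fold change -0.45, SE 0.62, and 0.55 with SE 0.31 without WT 3).

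Acaca, which makes malonyl-CoA in the cytosol, was at 60.6, 56.8 and 162 CPM in WT and 67.8, 81.3 and 77.7 CPM in FOXO3 KO. Its log2 fold change was -0.30 (SE 0.42), and without WT 3 it was 0.37 (SE 0.10, edgeR unadjusted p = 0.00902, adjusted p = 0.513). Acly was at 272, 266 and 429 CPM in WT and 311, 329 and 377 CPM in FOXO3 KO. Without WT 3 every FOXO3 KO library lay above the remaining WT libraries for both genes, and for Acly the log2 fold change moved from 0.07 to 0.34 (SE 0.11, edgeR adjusted p = 0.516). Of the Acaca stretches of 31 bases, 33.5% also occur in other genes, mostly Gm5182, while none of those of Acly and Fasn do.

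Me1, the malic enzyme that supplies NADPH for fatty acid synthesis, was at 0.415, 0.247 and 5.74 CPM in WT and 0.814, 3.90 and 0.867 CPM in FOXO3 KO. WT 3 and FOXO3 KO 2 stood far above the other 4 libraries, and the log2 fold change ran from -1.34 without FOXO3 KO 2 to 2.46 without WT 3 (-0.21 with all, SE 1.26). Its counts were between 7 and 206, and 36.9% of its stretches of 31 bases also occur in other genes. Acacb, the acetyl-CoA carboxylase of the mitochondrial surface, was at 0.885, 0.564 and 2.29 CPM in WT and 0.779, 1.35 and 1.17 CPM in FOXO3 KO, with overlapping groups (log2 fold change -0.19, SE 0.56). Acss2, which makes acetyl-CoA from acetate, had a log2 fold change of -0.10 (SE 0.21).

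Beside these genes, markers of other cells were also high in WT 3. The 8 B cell markers summed to 784, 424 and 3473 CPM in WT and 189, 376 and 726 CPM in FOXO3 KO, and 8 of 8 had log2 fold changes below 0. The 8 T cell markers summed to 272 CPM in WT 3 and to between 60.1 and 103 CPM in the other libraries. Cd2 was the largest part in WT 3, at 149 CPM. Cd28 was not highest there, at 23.9 CPM in WT 3 and 31.2 CPM in FOXO3 KO 1. The 6 mast cell markers summed to 774 CPM in WT 3 and to between 99.5 and 291 CPM elsewhere. WT 3 also differed from WT 1 and WT 2 in Xist. The part of these in the fatty acid synthesis values was not tested.

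Fads2 (19:10062765-10101746) had the smallest p of the 39 genes. It encodes the desaturase that acts first on the essential fatty acids linoleate and alpha-linolenate. It was at 0.775, 0.564 and 0.558 CPM in WT and 2.19, 5.10 and 2.51 CPM in FOXO3 KO, from 28, 16 and 20 counts in WT and 62, 140 and 84 counts in FOXO3 KO. All FOXO3 KO libraries lay above all WT libraries, and FOXO3 KO 2, with Foxo3 at the WT level, was the highest. The FOXO3 KO mean was 5.17 times the WT mean, and 3.72 times without FOXO3 KO 2. The log2 fold change was 2.36 (SE 0.42, edgeR unadjusted p = 0.0012, adjusted p = 0.714), 1.89 without FOXO3 KO 2 and 2.28 without WT 3. The adjusted p was 0.00426 by the likelihood ratio test of edgeR and 0.00076 by DESeq2. By exact permutation of the libraries (two-sided), p was 0.1, the smallest value open to 3 against 3.

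The sum of fibroblast markers moved with Fads2. The 8 markers, among them Col1a1, Col3a1 and Dcn, summed to 79.8, 56.1 and 43.7 CPM in WT and 98.8, 506 and 180 CPM in FOXO3 KO, so that both orders put FOXO3 KO 2 highest, then FOXO3 KO 3, FOXO3 KO 1, WT 1, WT 2 and WT 3. Of the 8, 7 were tested and 7 of 7 had log2 fold changes above 0 (6 of 7 without FOXO3 KO 2). In 5 of the 7, every FOXO3 KO library lay above every WT library (background 7.00%). Col3a1 and Pdgfrb had groups that overlapped. Pdgfrb was at 0.609, 0.353 and 0.390 CPM in WT and 0.248, 1.90 and 0.359 CPM in FOXO3 KO. Lum, which was not tested, was at 0.547 CPM or less in every library. Per 100 CPM of the 8 markers summed, Fads2 was at 0.971, 1.01 and 1.28 CPM in WT and 2.22, 1.01 and 1.40 CPM in FOXO3 KO. The groups overlapped through FOXO3 KO 2, which was within the WT range. FOXO3 KO 1 lay above every WT library, and FOXO3 KO 3 lay little above WT 3, where Fads2 had 20 counts. The ratio depends on which markers are summed. FOXO3 KO 3 held Col1a1 at 34.4 and Col3a1 at 31.8 CPM, where WT libraries held 5.19 to 7.80 and 13.8 to 29.2 CPM. The 8 mesothelial markers summed to between 7.19 and 15.1 CPM in WT and 14.1, 45.7 and 19.5 CPM in FOXO3 KO. Of the 7 tested, 4 had every FOXO3 KO library above every WT library (background 7.00%): Upk3b, Wt1, Lrrn4 and Krt19. Wt1 was at 1.83, 1.34 and 1.17 CPM in WT and 3.61, 13.2 and 5.38 CPM in FOXO3 KO, in the same order as Fads2. Krt8 and Krt18 were highest in WT 3, at 7.00 and 2.01 CPM, with log2 fold changes of -0.07 and -0.08. Krt7 had groups that overlapped (log2 fold change 0.72). Msln, which was not tested, was at 0.223 CPM or less in every library. The part of fibroblasts and mesothelial cells in the Fads2 values was not tested. Adipocyte markers were near 0 in all libraries, as given above.

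**Figure D4:**
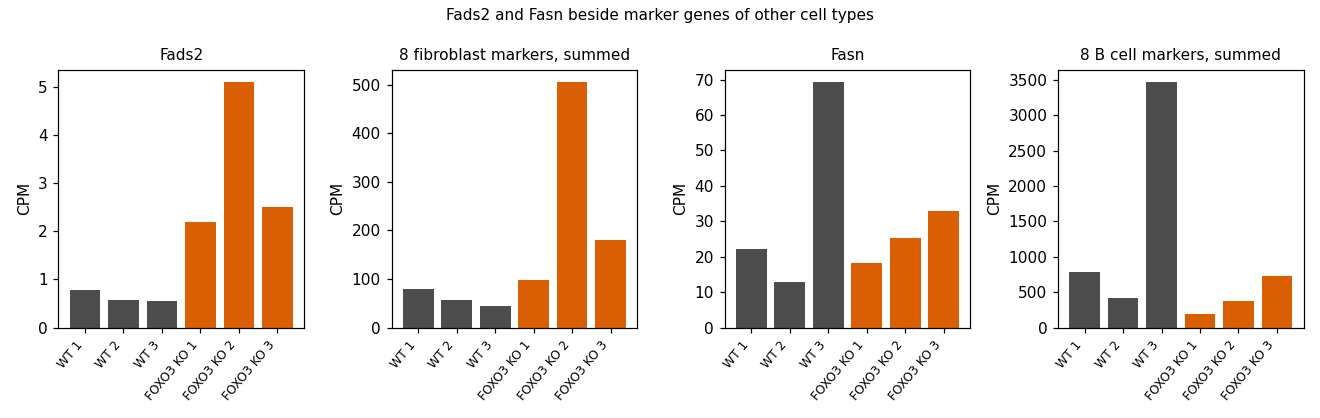
CPM in each library (WT grey, FOXO3 KO orange) of Fads2, the sum of 8 fibroblast markers, Fasn and the sum of 8 B cell markers, each on its own linear axis from 0. Fads2 and the fibroblast sum are both highest in FOXO3 KO 2 (5.10 and 506 CPM), and Fasn and the B cell sum both in WT 3 (69.3 and 3473 CPM).

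Fads1 (19:10182888-10196877) lies beside Fads2 on the opposite strand and encodes the desaturase of a later step of the same route. It was at 23.3, 21.1 and 8.92 CPM in WT and 24.8, 25.2 and 24.8 CPM in FOXO3 KO. The FOXO3 KO libraries were nearly equal and WT 3 was at 0.402 times the mean of the other WT libraries. The log2 fold change was 0.49 (SE 0.34), with 0.48 without FOXO3 KO 2 and 0.18 without WT 3. Elovl6, which lengthens palmitate to stearate and whose promoter holds the FoxO element above, was at 6.20, 5.68 and 5.60 CPM in WT and 7.58, 6.85 and 7.48 CPM in FOXO3 KO. The groups did not overlap and the difference was modest (log2 fold change 0.33, SE 0.16, edgeR unadjusted p = 0.0825). It was 0.37 without FOXO3 KO 2 and 0.31 without WT 3, on the log2 scale.

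Scd1 (19:44394455-44407879), the stearoyl-CoA desaturase that makes oleate, had the lowest log2 fold change of the 39 genes, at -1.60 (SE 0.85, edgeR unadjusted p = 0.107, adjusted p = 0.839). It was at 95.7, 45.3 and 325 CPM in WT and 16.8, 56.5 and 80.3 CPM in FOXO3 KO. The groups overlapped, with WT 3 far above and FOXO3 KO 1 far below the rest, and the log2 fold change was -0.45 (SE 0.62) without WT 3 and -1.67 without FOXO3 KO 2. Scd2 (19:44293674-44306864), its neighbour and close relative, was at 67.0, 40.1 and 49.1 CPM in WT and 50.4, 84.6 and 53.1 CPM in FOXO3 KO, highest in FOXO3 KO 2 (log2 fold change 0.27, SE 0.27, and -0.01 without FOXO3 KO 2). The ratio of Scd1 to Scd2 CPM was 1.43, 1.13 and 6.61 in WT and 0.333, 0.668 and 1.51 in FOXO3 KO. Of the stretches of 31 bases, 8.18% of those of Scd1 and 6.81% of those of Scd2 occur in other genes, mostly Scd3.

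Among the elongases, Elovl5, which acts on polyunsaturated fatty acids, was the steadiest, at 142, 147 and 158 CPM in WT and 143, 156 and 151 CPM in FOXO3 KO (log2 fold change 0.01, SE 0.10). Elovl7 was at 0.913, 0.952 and 1.90 CPM in WT and 1.63, 0.474 and 1.65 CPM in FOXO3 KO, with groups that overlapped (log2 fold change -0.00, SE 0.56). Elovl1, which makes very long chains, had a log2 fold change of 0.18 (SE 0.22; -0.01 without WT 3), and in WT 3 it was at 0.595 times the mean of the other WT libraries.

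**Figure D5:**
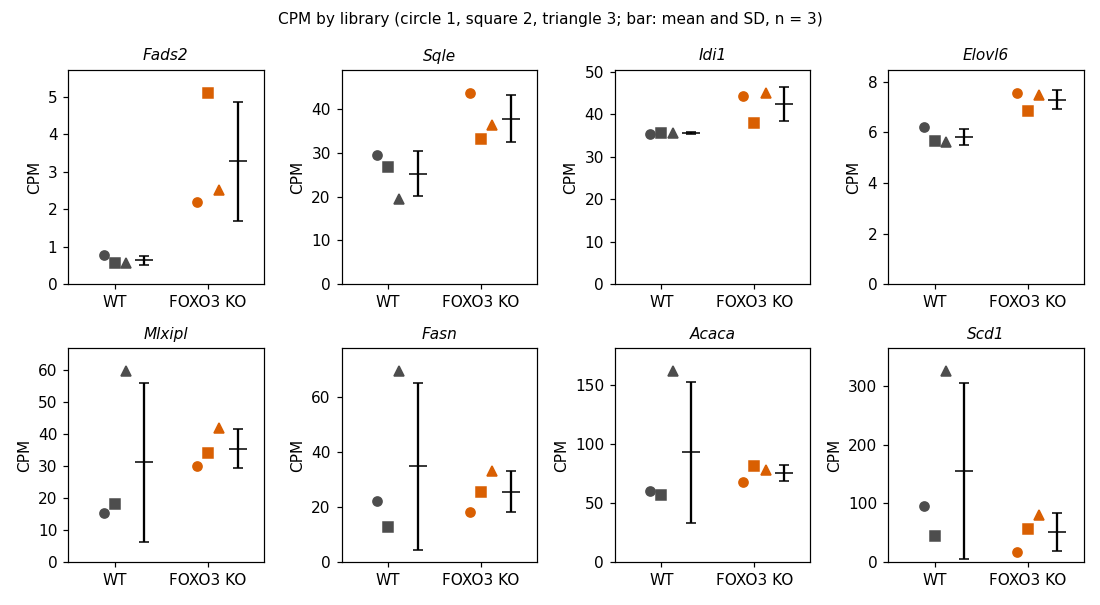
CPM in each library of 8 genes, WT in grey and FOXO3 KO in orange (circle library 1, square 2, triangle 3), with the mean and SD of 3 libraries beside the points, each on its own axis from 0. Fads2, Sqle, Idi1 and Elovl6 do not overlap between the groups, and in Mlxipl, Fasn, Acaca and Scd1 the triangle of WT 3 is the highest point.

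Other genes of both routes were given by a second list. Of 24 further sterol and isoprenoid genes, all 24 tested, 12 were higher and 12 lower in FOXO3 KO (median log2 fold change -0.00), and 0 passed an unadjusted p of 0.05 in either direction in edgeR (background 4.04% higher and 1.65% lower). Without WT 3, 10 were higher and 14 lower, and 1 passed that p, Nr1h3, which encodes a sterol-sensing nuclear receptor, at a log2 fold change of -0.45 (SE 0.17, edgeR adjusted p = 0.562), against a background of 2.25% lower. Of 29 further fatty acid genes, 24 were tested, with 13 higher and 11 lower (median 0.06). Of these, 1 passed an unadjusted p of 0.05 in edgeR (background 1.65% lower), Gpam, which starts the attachment of fatty acids to glycerol. Gpam was at 5.09, 5.25 and 3.88 CPM in WT and 3.08, 2.73 and 3.08 CPM in FOXO3 KO. All FOXO3 KO libraries were below all WT libraries (log2 fold change -0.68, SE 0.22, edgeR unadjusted p = 0.0198, adjusted p = 0.765). Without FOXO3 KO 2, 0 of these 24 passed an unadjusted p of 0.05 (background 3.05% higher and 1.26% lower). Without WT 3, 2 were lower at that p (background 2.25%), Gpam at a log2 fold change of -0.79 (SE 0.18) and Lpin1, a phosphatidate phosphatase, at -0.30 (SE 0.10).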

How the data were processed

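The deposited table held estimated counts per gene symbol for 6 libraries (76-base reads), which the authors had made from their reads without normalization; 81.4% of values were whole to within 0.01, and the rest were rounded. The submitters' processing notes name STAR 2.6.1d, kallisto 0.46.0, DESeq2 and the build mm10, with no role given.

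Groups were compared with edgeR 4.0.16 (R 4.3.3; filterByExpr, TMM, glmQLFit and glmQLFTest) on all 6 libraries by label, with p-values adjusted by Benjamini-Hochberg across the 15608 genes that passed the filter, at an FDR of 0.05 and a fold change of 1.5. Standard errors were obtained by dividing the absolute log2 fold change by the root of its F statistic. Nothing in the sources says whether each library is 1 mouse, so p-values measure only the spread between these libraries, part of which may be technical. Xist differed between libraries within both groups, so not all libraries of a group came from the same mice. The fit was tested on simulated data. No pair of libraries agreed within sampling noise.

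The alternatives were the likelihood ratio test, DESeq2 1.42.0, limma-voom (limma 3.58.1), 2 other scalings, 2 other filters, the replicate number as a block, an Xist covariate (split at 1 CPM) and each library left out. Leaving out WT 3 and FOXO3 KO 2 together was chosen after seeing the data. Library values are printed for the 12 genes with the smallest p, for Srebf1, Srebf2, Insig1, Scd1, Scd2 and Fasn, for genes at 10 CPM or less in all libraries, and, chosen after their values were seen, for Mlxipl, Acaca, Acly and Elovl5. The genes and lists were chosen with earlier results of these data known. Nr1h3 and Lpin1 are also named after their values were seen. Of the marker lists, only that of eosinophils (71.8, 65.4 and 92.6 CPM summed in WT, 37.4, 58.3 and 94.8 CPM in FOXO3 KO) is given here alone. In WT 3, most of that sum was Il5ra, at 80.0 CPM, while Siglecf and Ccr3 were lowest there, at 3.71 and 8.89 CPM. Coordinates and exon lengths are from GENCODE M21.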

Additional observations from a re-analysis of the deposited data

How the results depend on the processing

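The count of genes past the FDR and fold change was 1 by the likelihood ratio test and 1 by DESeq2 (Fads2 in both) and 0 under the other alternatives run, the replicate block included. Whether the replicate numbers pair the libraries cannot be told. Deviations of same-numbered libraries from their group means correlated at 0.339, -0.0612 and 0.567, and FOXO3 KO 1 correlated best with WT 2 (0.611). Xist was high in both libraries numbered 3. Deviations within a group of 3 libraries sum to 0 for each gene, so these correlations cannot decide it. With the replicate block, 2 genes were higher at an unadjusted p under 0.05 in place of 3. By library size without factors, without a filter on low counts and by the likelihood ratio test, 2 were, and by DESeq2 and with the Xist covariate, 4 were. By DESeq2, 1 gene was lower at such a p. Leaving out any library but WT 3 and FOXO3 KO 2 took the unadjusted p of Idi1 above 0.05 (0.0809 to 0.14), and leaving out FOXO3 KO 1 that of Sqle (0.0726). Leaving out 1 library at a time, genes higher at an unadjusted p under 0.05 were 1 (without FOXO3 KO 1) to 7 (without WT 3), genes lower 0 to 1, and genes whose groups do not overlap 8 to 15 (15 without WT 3, where 25.1% of all genes do not overlap, against 12.4% with all libraries). The median log2 fold change of the 39 genes was then 0.0453 to 0.1408, of the sterol genes 0.0230 (without WT 3) to 0.1994, and of the fatty acid genes -0.1031 to 0.3262 (without WT 3). With WT 3 and FOXO3 KO 2 both left out, a choice made after seeing the data, 8 genes were higher and 1 lower at an unadjusted p under 0.05, 19 did not overlap (5.49%, 3.39% and 38.1% of all genes), and the medians were -0.0057 for the sterol and 0.3266 for the fatty acid genes.

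Of 585 log2 fold changes of single genes under an alternative, 531 kept their direction and side of the threshold, 2 passed it newly (Fads2, above) and 52 changed sign. The 52 lay in 23 genes, none of which had a value over 0.446 in size with all libraries, and 17 of them arose without WT 3. Leaving out 1 library at a time, the lowest and highest log2 fold changes of the regulators that changed sign were -0.25 and 0.076 for Srebf2, -0.052 and 0.19 for Insig2 and -0.15 and 1.08 for Mlxipl. They were -0.041 and 0.15 for Acat2, -0.10 and 0.099 for Mvd, -0.038 and 0.061 for Fdft1, -0.071 and 0.0904 for Lss, -0.063 and 0.20 for Tm7sf2, -0.019 and 0.45 for Msmo1, -0.0079 and 0.27 for Hsd17b7, -0.045 and 0.16 for Ebp, -0.074 and 0.24 for Sc5d and -0.026 and 0.21 for Dhcr7 among the sterol genes. They were -0.046 and 0.34 for Acly, -0.26 and 0.045 for Acss2, -0.55 and 0.37 for Acaca, -0.52 and 0.60 for Acacb, -0.83 and 0.55 for Fasn, -1.34 and 2.46 for Me1, -0.0072 and 0.48 for Scd2, -0.014 and 0.37 for Elovl1, -0.033 and 0.062 for Elovl5 and -0.25 and 0.44 for Elovl7 among the fatty acid genes. Under DESeq2 the log2 fold change of Lss was -0.0056. Under limma-voom it was -0.011 for Lss, 0.0049 for Acacb and 0.635 for Me1. With upper-quartile factors it was -0.0022 for Lss. By library size without factors it was -0.0020 for Fdft1, -0.027 for Lss and -0.019 for Elovl5. Without the filter it was 0.018 for Elovl7. With the replicate block it was 0.63 for Me1. With the Xist covariate it was -0.0044 for Lss, 0.0022 for Acacb, 1.06 for Me1 and 0.039 for Elovl7. Beyond the leaving out of WT 3, the cause of these changes was not tested. Counts were as low as 16, 7, 16 and 13 in a library for Fads2, Me1, Acacb and Elovl7.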
